A study of Mus musculus with 10 samples.

Results

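The translation initiation and elongation factors are the proteins that bring ribosomes to an mRNA, set them on the start codon and carry them along the coding sequence. Their mRNAs were followed in effector memory (EM) γδ T cells of the spleen, to ask whether the factors change with the ribosomal proteins after malaria. All genes of the count table were taken whose Entrez identifier maps to a mouse symbol that opens with Eif or Eef and a digit, with at least 50 counts over the 10 libraries. This gave 65 genes of 71 with such a symbol, out of 27179 genes counted. Of the 6 others, Eef1akmt3 had 14 counts in all, the pseudogene Eif1-ps3 had 42, and Eef1a2, Eif4e1b, Eif2c5 and Eif2s3y had 0.

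The cells were sorted as CD3+ γδTCR+ CD62L- CD44+ from the spleens of female C57BL/6 mice, with 1 library per mouse. The 5 pre-exposed mice had received 50000 red blood cells infected with Plasmodium chabaudi (P. chabaudi) intravenously at 6 to 8 weeks of age, and the 5 naïve mice had not. Both groups were drug-treated with chloroquine and pyrimethamine, by injection on day 14 and then in the drinking water for 5 days. Spleens were taken 12 weeks after the treatment ended, so the naïve mice control for the drugs but were never infected.

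Translation of most mRNAs opens when eIF4E binds the cap and recruits the scaffold eIF4G and the helicase eIF4A. The small ribosomal subunit arrives with eIF3 and with eIF2, which carries the initiator tRNA, and eIF1 and eIF5 help it to select the start codon. eIF2B recharges eIF2, kinases that phosphorylate eIF2 hold initiation back under stress, and eEF1 and eEF2 then drive elongation. The mRNAs of ribosomal proteins and of several factors open with a terminal oligopyrimidine (TOP) motif, a C followed by pyrimidines. Through it mTOR and LARP1 control them together, and activated T cells make more of both.

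The sequence around the start sites was searched for pyrimidine tracts, which do not by themselves tell TOP mRNAs from others. RefSeq promoters (GRCm38.p6) were given for 51 of the 65 factors, 58 of the 79 cytosolic ribosomal proteins and 9825 of the 12655 genes tested. A tract of at least 10 pyrimidines that opens with C lay on the sense strand within 50 bases of a start in 65.5% of the ribosomal protein genes. It lay there in 27.5% of the factors (14 genes) and in 16.8% of all genes. With both strands searched the shares were 70.7%, 37.3% and 31.5%. The letters CTCTTT, which can lie inside such a tract, occurred on the sense strand in 34.5% of ribosomal protein genes, 5.88% of the factors (3 genes) and 4.08% of all genes. With both strands searched, these letters were found in 36.2%, 5.88% and 6.82%. The windows below, of 30 bases each, show tracts in 3 ribosomal protein genes and in 4 factors, with the tract in capitals, and the start sites of 3 factors without one.
Rps6 (chr4:86857349-86857378, minus strand): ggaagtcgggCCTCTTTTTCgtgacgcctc
Rpl35 (chr2:39005115-39005144, minus strand): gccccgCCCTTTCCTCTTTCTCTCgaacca
Rpl27a (chr7:109519186-109519215, plus strand): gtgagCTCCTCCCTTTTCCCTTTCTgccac
Eef1a1 (chr9:78481710-78481739, minus strand): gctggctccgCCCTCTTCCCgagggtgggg
Eif3f (chr7:108934403-108934432, plus strand): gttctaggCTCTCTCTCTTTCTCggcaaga
Eif3k (chr7:28981856-28981885, minus strand): gctgaaagcgCCTTTCCCTTTgccttcctt
Eif3m (chr2:105017028-105017057, minus strand): tacggcaccgCTCTCTTTTCCggtcggcgt
Eef2 (chr10:81176616-81176645, plus strand): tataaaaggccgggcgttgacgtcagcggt
Eif4g1 (chr16:20672712-20672741, plus strand): cgccagcgcagctccgccctctgcgccggt
Eif5 (chr12:111538086-111538115, plus strand): gagatcgacgtgcatgcgagccaatgacaa
The tract of Rps6 began 1 base before the annotated start, that of Eif3f 4 bases before it and that of Eif3m 20 bases before it. A match describes these letters only, and annotated starts can lie some bases from the true ones.

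Total counts per library ranged from 6587199 to 19993444 in the naïve mice and from 8747888 to 22542832 in the pre-exposed mice. The γδ T cell markers summed to between 6998 and 11698 CPM (counts per 1000000 of the TMM-scaled library size) in naïve libraries and to between 4585 and 15139 CPM in pre-exposed ones, and all 8 had counts. Markers of other cells moved with pre-exposure, where 5.12% of all genes were higher. Of the B and plasma cell markers 4 of 6 tested were higher by edgeR, of the dendritic cell and macrophage markers 6 of 8, of the erythroid markers 4 of 5 of the αβ T cell markers 1 of 6, of the NK cell markers 1 of 5 and of the γδ T cell markers 1 of 8. The B and plasma cell markers summed to 159 to 864 CPM in naïve and 487 to 5452 CPM in pre-exposed libraries, the dendritic cell and macrophage markers to 85.9 to 198 CPM and 91.0 to 1579 CPM, and the erythroid markers to 79.6 to 459 CPM and 325 to 2040 CPM. Pre-exposed mouse 5 stood apart, with 24.7% of its counts in its 10 highest genes and 12.8% in mitochondrial genes. The descriptions of pre-exposed mice 2 to 4 lack the index pair that those of all other libraries give, and these 3 libraries held 0.846% to 1.91% mitochondrial counts, against at least 4.33% in the other 7. Gene length also moved with the groups: Spearman's rho across genes, between length and a library's deviation in log2 CPM from the mean of the 10 libraries, was 0.283 to 0.378 in the naïve libraries and 0.199, -0.542, -0.426, -0.222 and -0.117 for mice 1 to 5 after pre-exposure (p = 0.00794 for the difference in mean rho, two-sided exact permutation test). The part of these properties in the results below was not tested, and less RNA per cell cannot be told apart from fewer cells of a type.

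The factors took 1.00% of all counts on average in both groups, while the share of the ribosomal proteins rose. In the naïve mice the 65 factors held 0.987%, 1.04%, 1.01%, 0.985% and 0.983% of the counts. In pre-exposed mice 1 to 5 they held 0.964%, 1.01%, 1.10%, 1.06% and 0.862%. The means were 1.00% ± 0.0225 (SD, n = 5) and 1.00% ± 0.0928 (SD, n = 5). In these shares the groups overlapped and only the spread was wider after pre-exposure. With TMM scaling the factors summed to 10205 ± 557 CPM in naïve and 11308 ± 1462 CPM in pre-exposed mice (SD, n = 5 each). Pre-exposed mice 2, 3 and 5 were then above the naïve range of 9354 to 10702 CPM. Mouse 5 was highest by this sum, at 13702 CPM, and lowest by its share of all counts. The 79 ribosomal protein genes held 0.498%, 0.540%, 0.646%, 0.530% and 0.647% of the counts in the naïve mice. After pre-exposure they held 0.639%, 1.13%, 0.878%, 1.13% and 1.48%. Mouse 1 lay within the naïve range and the other 4 above it (exact permutation p = 0.0238, two-sided, for the difference in means).

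**Figure D1:**
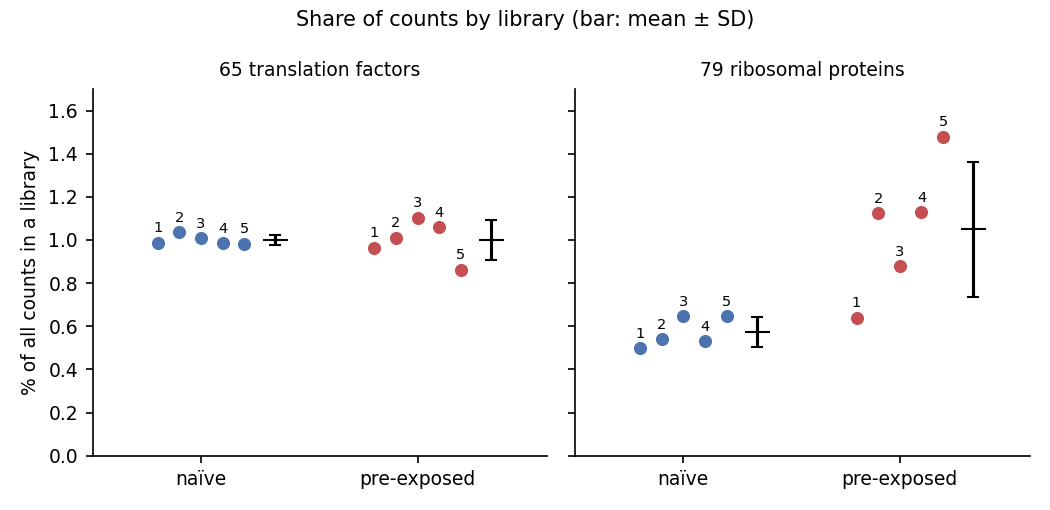
Percent of all counts of a library (y axis) in the 65 translation factors (left) and in the 79 cytosolic ribosomal proteins (right), with 1 numbered point per mouse and mean ± SD beside each group. The factors stay between 0.862% and 1.10% in all 10 mice, whereas the ribosomal proteins reach 1.48% in pre-exposed mouse 5.

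Per ribosomal protein count, a ratio that no scaling of the library can move, the naïve libraries held 1.98, 1.92, 1.56, 1.86 and 1.52 factor counts. The pre-exposed libraries held 1.51, 0.898, 1.26, 0.939 and 0.583. Pre-exposed mouse 1 lay just under the lowest naïve mouse, and mouse 5 was the lowest of all.

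Gene by gene, 1 of the 65 factors passed the test between the groups. All 65 passed the filter on low counts. The elongation factor gene Eef1d was higher and no factor was lower, with calls made at adjusted p below 0.05 (edgeR quasi-likelihood test, Benjamini-Hochberg over 12655 genes). Over all genes 6.30% were called, 5.12% higher and 1.18% lower. There were 20 factors with an unadjusted p under 0.05, against 24.3% of all genes. By DESeq2 5 factors were called higher and 0 lower, against 7.97% and 2.69% of all genes. The log2 fold change was above 0 in 45 of the 65 factors and in 51.3% of all genes, with medians of 0.22 and 0.02. Of the 79 ribosomal proteins 37 were called higher and 0 lower, their median was 1.23, and all 79 values were above 0. Every factor had a log2 fold change under that median in this fit, and 38 of the 65 lay under the lowest ribosomal protein (0.36). In other fits some factors lay above it. Without pre-exposed mouse 5 the median of the ribosomal proteins was 0.78 and Eif4a3l1 was at 1.20. With each library's trend over gene length removed, described below, that median was 0.44 and Eif5b was at 1.24. Under library totals without TMM scaling the medians were 0.11 for the factors, 1.04 for the ribosomal proteins and -0.05 for all genes.

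Eef1d (chr15:75894796-75909784, mm10) codes for eEF1Bδ, a subunit of the exchange factor that reloads eEF1A with GTP. It measured 39.3, 41.8, 56.8, 51.3 and 59.5 CPM in the naïve mice and 68.2, 99.9, 67.4, 98.7 and 99.0 CPM in the pre-exposed mice. Every pre-exposed mouse was above every naïve mouse, which held for 2 of the 65 factors and for 2.77% of all genes. The reverse held for 0 factors and for 2.17% of all genes. The log2 fold change was 0.80 ± 0.23 (SE, n = 5 per group, adjusted p = 0.0499, edgeR). The call was lost in 18 of 23 alternative settings, 8 of which leave out 1 library, with adjusted p up to 0.135 among those 8. Without pre-exposed mouse 1, 7 factors were higher and 1 lower, against 9.48% and 3.91% of all genes, and without mouse 5, 6 were higher and 1 lower, against 9.69% and 5.72%. The gene shares bases with Tigd5 in the annotation, and the strand setting of the counting is not given, so reads of both could mix. Eif3i, named after its values were seen, was the other factor without overlap, at 50.6, 64.1, 84.6, 76.0 and 86.6 CPM in the naïve mice and 87.2, 136, 119, 143 and 88.8 CPM in the pre-exposed mice (log2 fold change 0.67 ± 0.24, adjusted p = 0.0986).

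**Figure D2:**
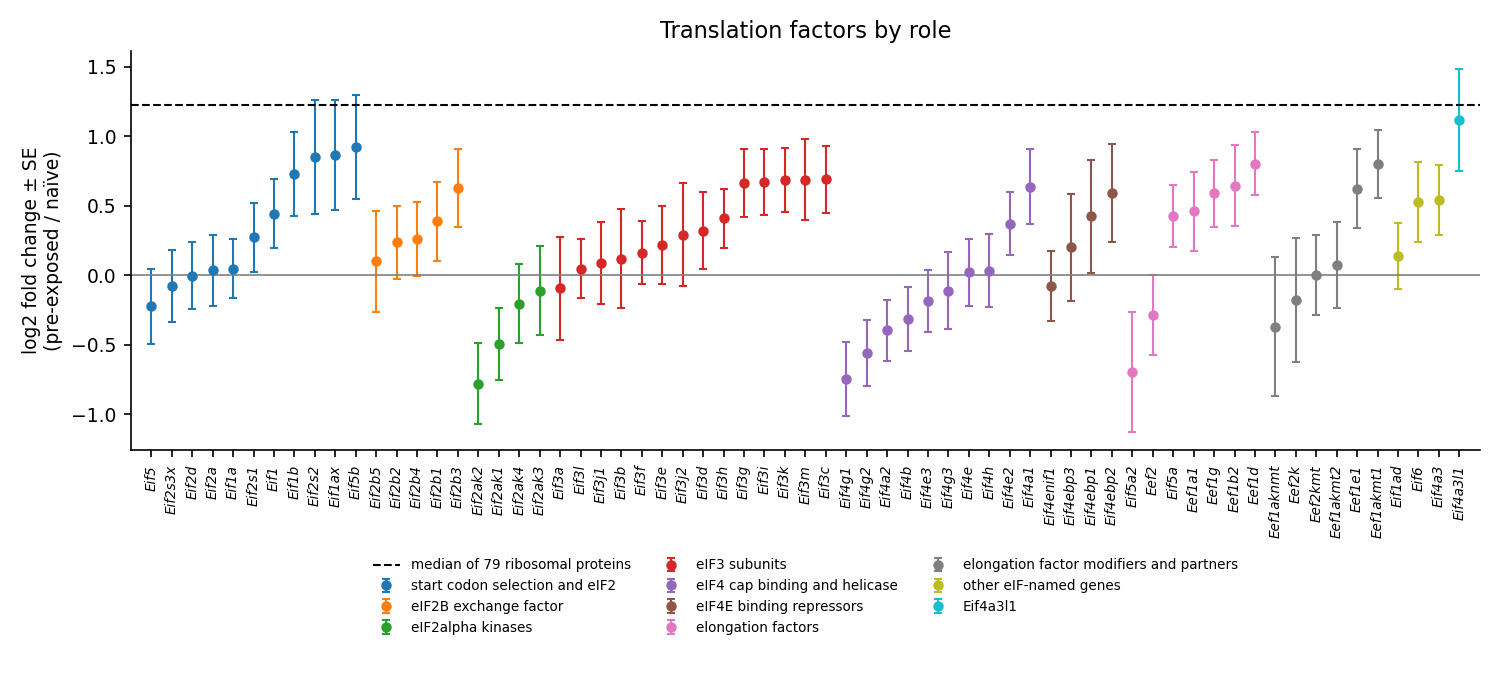
Log2 fold change of pre-exposed over naïve mice (y axis, points, with SE as bars) of the 65 factors (x axis), ordered by role and then by value; the dashed line marks the median of the 79 ribosomal proteins. All 65 points lie under the dashed line at 1.23, and the 4 eIF2α kinases all lie under 0.

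Among the factors of start codon selection and the eIF2 complex, 0 of 11 were called and 8 had a log2 fold change above 0 (median 0.27). Eif1, which keeps the scanning subunit open, had the highest level per length of all 65 factors, at 702 CPM per kilobase in naïve and 955 in the pre-exposed mice. It measured 859, 925, 999.9, 799 and 675 CPM in the naïve mice and 880, 1515, 1639, 915 and 841 CPM in the pre-exposed mice. Only pre-exposed mice 2 and 3 stood above the naïve range (log2 fold change 0.44 ± 0.25, adjusted p = 0.290, edgeR).

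Eif5b, the GTPase that joins the large subunit, measured 95.3, 79.9, 108, 87.4 and 64.2 CPM in the naïve mice and 85.3, 116, 126, 105 and 394 CPM in the pre-exposed mice. Its log2 fold change of 0.92 ± 0.37 (adjusted p = 0.143) was mostly that of mouse 5 and was 0.28 without it. Eif1ax, the X-linked gene of eIF1A, was at 84.7, 82.6, 94.9, 100.3 and 61.3 CPM against 95.5, 108, 143, 58.5 and 371 CPM. Its log2 fold change of 0.86 ± 0.39 (adjusted p = 0.193) was 0.23 without mouse 5. Eif5, which makes eIF2 hydrolyse its GTP at the start codon, went from 725 ± 169 to 622 ± 218 CPM (SD, n = 5 each, adjusted p = 0.650).

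The 5 subunits of eIF2B all had a log2 fold change above 0, between 0.10 and 0.63, and none was called. Eif2b3 had the smallest p, with 37.6, 38.8, 26.2, 19.8 and 27.0 CPM in the naïve mice and 27.1, 67.6, 47.8, 45.0 and 43.6 CPM in the pre-exposed mice. Mice 2 to 5 were above the naïve range and mouse 1 was inside it (log2 fold change 0.63 ± 0.28, adjusted p = 0.183, edgeR). Per kilobase Eif2b1 and Eif2b2 were the highest subunits, at 25.4 and 23.9 CPM in the naïve mice and 33.2 and 27.9 CPM in the pre-exposed mice.

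The 4 kinases that phosphorylate eIF2α were the one group in which every member had a log2 fold change under 0, from -0.78 to -0.11, and none was called. Eif2ak2 codes for PKR, which double-stranded RNA activates and interferon induces. It measured 65.02, 40.2, 64.2, 38.2 and 37.9 CPM in the naïve mice and 36.7, 20.1, 24.2, 20.4 and 43.1 CPM in the pre-exposed mice. Mice 2 to 4 were at the lowest levels, mouse 1 just under the naïve range and mouse 5 within it (log2 fold change -0.78 ± 0.29, adjusted p = 0.114, edgeR). Eif2ak1, the haem-regulated kinase, was the highest of the 4 per kilobase, at 31.8 CPM in naïve and 22.5 CPM in the pre-exposed mice (log2 fold change -0.50 ± 0.26, adjusted p = 0.255). It overlaps Aimp2 and Ankrd61 in the annotation, and Eif2ak2 overlaps Gm26637 and Gm6548.

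Of the 14 subunits of eIF3, the largest initiation factor, 13 had a log2 fold change above 0 (median 0.31) and 0 were called. Eif3k, with the smallest p, was at 51.0, 51.4, 67.1, 56.9 and 73.1 CPM in the naïve mice and 67.6, 127, 79.3, 103 and 103 CPM in the pre-exposed mice. Mice 2 to 5 were above the naïve range (log2 fold change 0.68 ± 0.23, adjusted p = 0.0876). Eif3m was at 138, 185, 173, 118 and 114 CPM against 112, 249, 225, 204 and 384 CPM, with mouse 1 under all naïve mice and mice 2 to 5 above them (log2 fold change 0.69 ± 0.29, adjusted p = 0.160).

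The eIF3 subunits were not at one level, although they form 1 complex. Per kilobase they ranged from 18.6 to 165 CPM in the naïve mice and from 23.1 to 192 CPM in the pre-exposed mice, with Eif3e at the top. Eif3a, the largest subunit and a scaffold of the complex, was at 401, 366, 481, 416 and 332 CPM in the naïve mice and 384, 191, 228, 205 and 864 CPM in the pre-exposed mice. Mice 2 to 4 were under every naïve mouse and mouse 5 was above every other mouse, which left a group log2 fold change of -0.09 ± 0.37 (adjusted p = 0.901, edgeR). Eif3e went from 254 ± 44.2 to 296 ± 127 CPM, Eif3f from 96.2 ± 20.6 to 108 ± 20.3 CPM and Eif3h from 126 ± 18.3 to 168 ± 32.3 CPM (SD, n = 5 each), with adjusted p of 0.680, 0.699 and 0.254.

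In the group of cap binding, scaffold and helicase genes the direction was mixed, with 4 of 10 log2 fold changes above 0, a median of -0.15 and 0 genes called. Eif4g1 codes for the main scaffold between the cap and the ribosome. It measured 98.3, 122, 129, 118 and 129 CPM in the naïve mice and 119, 55.9, 63.7, 75.8 and 40.7 CPM in the pre-exposed mice. Mouse 1 was at the naïve level and mice 2 to 5 were under every naïve mouse (log2 fold change -0.75 ± 0.27, adjusted p = 0.102, edgeR). Without mouse 1 it was called lower, at -1.01 and an adjusted p of 0.0140. It overlaps the small nucleolar RNA gene Snord66. Other factors described here also share bases with another gene in the annotation, among them Eif5b with Rev1, Eif3m with Ccdc73, Eif5a with Gps2, Eif3a with Snora19 and Eef2 with Snord37, and Eif1 and Eif1ax have close copies (Eif1b and Eif1a) with which reads could be split.

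Eif4g2, whose product lacks the eIF4E binding site, was the highest of this group per kilobase in naïve mice, at 192 CPM against 130 CPM after pre-exposure. Its levels were 1676, 1773, 1412, 1470 and 1107 CPM in the naïve mice and 1239, 720, 1300, 964 and 818 CPM in the pre-exposed mice, of which mice 2, 4 and 5 lay under the naïve range (log2 fold change -0.56 ± 0.24, adjusted p = 0.156). Eif4g3 went from 70.6 ± 12.8 to 65.6 ± 27.1 CPM (SD, n = 5 each, adjusted p = 0.837) and Eif4b, a cofactor of the helicase, from 82.0 ± 12.1 to 65.9 ± 15.4 CPM (adjusted p = 0.416).

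Both genes of the helicase eIF4A were abundant and went apart in 3 mice. Eif4a2 was at 547, 598, 560, 449 and 410 CPM in the naïve mice and at 426, 321, 448, 280 and 473 CPM in the pre-exposed mice (log2 fold change -0.40 ± 0.22, adjusted p = 0.286). Eif4a1, named after its values were seen, was at 120, 123, 105, 96.2 and 92.5 CPM in the naïve mice and at 97.6, 238, 170, 226 and 104 CPM in the pre-exposed mice (log2 fold change 0.64 ± 0.27, adjusted p = 0.164). The ratio of Eif4a1 to Eif4a2 counts was 0.187 to 0.225 in the naïve mice, 0.229 and 0.220 in pre-exposed mice 1 and 5, and 0.740, 0.379 and 0.806 in mice 2 to 4. Small nucleolar RNA genes lie within the bounds of Eif4a2 (Snora81 and Snord2) and reads of the 2 paralogs could be split by the counting. This ratio was chosen after its values were seen and is given without a test. It sets a gene of 1880 bases over one of 3174 bases.

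The 4 repressors that bind eIF4E had 0 called genes and 3 log2 fold changes above 0. Eif4ebp2, with the smallest p, was at 19.7, 25.3, 52.9, 55.2 and 47.5 CPM in the naïve mice and at 44.5, 68.03, 70.7, 89.2 and 27.8 CPM in the pre-exposed mice, a wide spread in both groups (log2 fold change 0.59 ± 0.35, adjusted p = 0.315, edgeR). Eif4ebp1 codes for 4E-BP1, which mTOR inactivates, and went from 21.3 ± 10.1 to 27.9 ± 13.2 CPM (SD, n = 5 each, adjusted p = 0.556). Eif4enif1, the carrier of eIF4E into the nucleus, went from 58.0 ± 10.9 to 55.4 ± 18.7 CPM (adjusted p = 0.882).

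Of the 7 elongation factor genes 1 was called, Eef1d, and 5 had a log2 fold change above 0 (median 0.46). Eef1a1, which brings aminoacyl-tRNA to the ribosome, had the highest level of this group, at 470 CPM per kilobase in naïve and 646 in the pre-exposed mice. It measured 854, 775, 989, 771 and 816 CPM in the naïve mice and 990, 979, 724, 882 and 2205 CPM in the pre-exposed mice. Only mouse 5 stood clearly apart, and the log2 fold change of 0.46 ± 0.28 (adjusted p = 0.340, edgeR) was 0.06 without it. Eef1a1 has many processed copies in the genome, so the counting may have split its reads.

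The other subunits of the eEF1 exchange complex had positive values as well and were not called. Eef1g was at 32.5, 39.1, 44.4, 42.8 and 48.0 CPM in the naïve mice and 46.2, 77.3, 48.0, 82.8 and 55.6 CPM in the pre-exposed mice, 4 of which were above the naïve range (log2 fold change 0.59 ± 0.24, adjusted p = 0.146). Eef1b2 was at 236, 266, 214, 230 and 184 CPM against 192, 308, 372, 253 and 642 CPM, again highest in mouse 5 (log2 fold change 0.64 ± 0.29, adjusted p = 0.188). It hosts the small nucleolar RNA gene Snora41.

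Eef2, the translocase of elongation, did not follow the eEF1 genes. It was at 294, 270, 410, 466 and 646 CPM in the naïve mice and 464, 246, 276, 462 and 262 CPM in the pre-exposed mice, within overlapping ranges (log2 fold change -0.29 ± 0.29, adjusted p = 0.577, edgeR). Eif5a, which helps the ribosome past stretches such as prolines, was at 379, 391, 439, 388 and 432 CPM against 507, 708, 576, 602 and 336 CPM, with mice 1 to 4 above the naïve range and mouse 5 under it (log2 fold change 0.43 ± 0.22, adjusted p = 0.254). Its paralog Eif5a2 was low, at 12.6 ± 1.36 CPM in naïve and 8.02 ± 5.43 CPM in the pre-exposed mice (SD, n = 5 each), with the third lowest log2 fold change of all factors (-0.70 ± 0.43, adjusted p = 0.337). The ratio of Eif5a to Eif5a2 counts was 27.0 to 38.4 for all naïve mice and 30.6 and 36.3 for pre-exposed mice 1 and 5. It was 355, 88.3 and 105 in mice 2 to 4. This ratio sets a gene of 2017 bases over one of 4992 bases, was not planned and is given without a test.

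The 6 modifiers and partners of the elongation factors had 0 called genes and a median of 0.04. Eef1akmt1, which methylates eEF1A, had the second smallest p of all factors, at 39.7, 36.1, 36.9, 39.8 and 46.2 CPM in the naïve mice and 43.6, 81.6, 63.2, 59.7 and 97.6 CPM in the pre-exposed mice. Mice 2 to 5 were above every naïve mouse (log2 fold change 0.80 ± 0.24, adjusted p = 0.0633, edgeR). Eef1e1, a partner of the tRNA synthetase complex, went from 61.3 ± 6.06 to 94.7 ± 45.5 CPM (SD, n = 5 each, adjusted p = 0.194) and Eef1akmt2 from 99.9 ± 23.8 to 106 ± 51.9 CPM (adjusted p = 0.906).

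The 3 genes that carry the eIF name but act elsewhere too, and Eif4a3l1, had positive values. Eif4a3, a core protein of the exon junction complex, was at 105, 111, 122, 112 and 114 CPM in the naïve mice and at 125, 215, 182, 208 and 87.4 CPM in the pre-exposed mice, with mouse 5 under all naïve mice (log2 fold change 0.54 ± 0.25, adjusted p = 0.204, edgeR). Eif6, which keeps the ribosomal subunits apart, went from 80.4 ± 22.2 to 115 ± 40.4 CPM (SD, n = 5 each, adjusted p = 0.272). Eif4a3l1, a close relative of Eif4a3 with which it may share reads, had the highest log2 fold change of all factors, at 4.77, 6.10, 4.51, 5.91 and 4.62 CPM against 4.95, 16.6, 12.6, 14.2 and 6.90 CPM (1.12 ± 0.37, adjusted p = 0.0796).

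**Figure D3:**
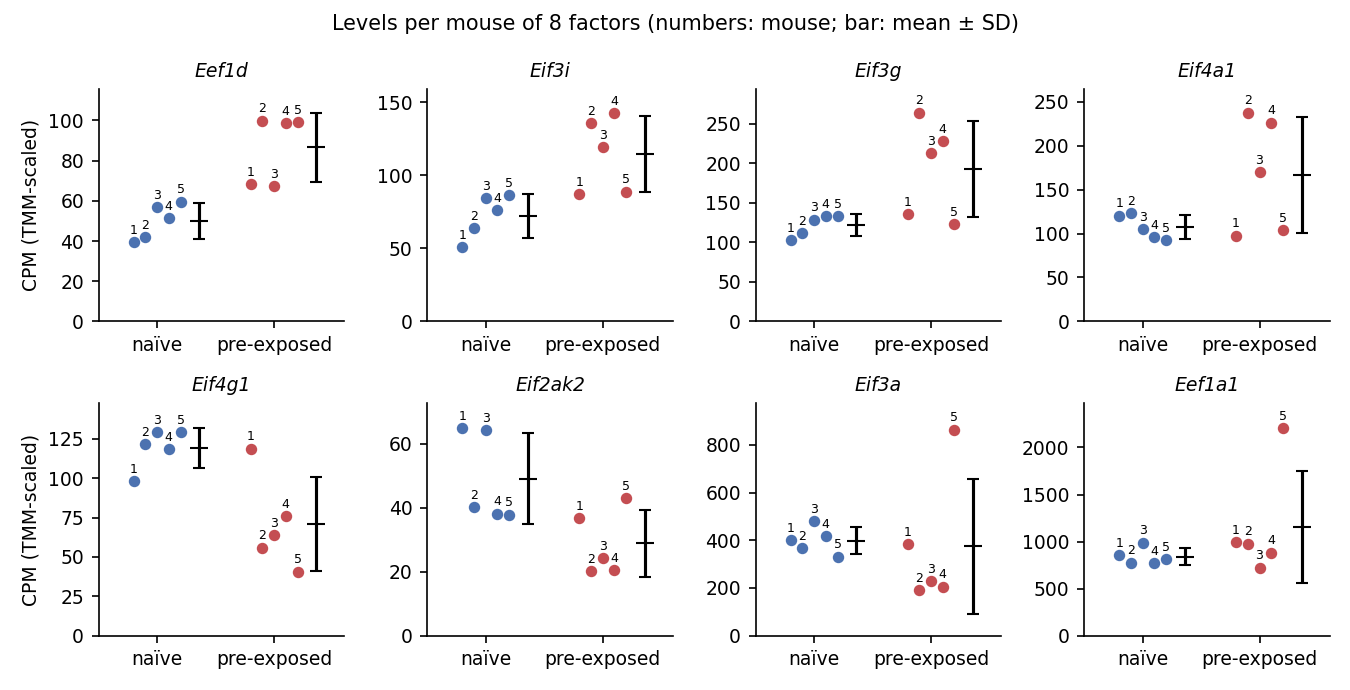
CPM per mouse (y axis, from 0, TMM-scaled) of 8 factors in naïve (blue) and pre-exposed (red) mice, with the mouse number beside each point and mean ± SD beside each group. Eef1d and Eif3i show no overlap, Eif4a1 and Eif4g1 move in opposite directions in mice 2 to 4, and Eif3a and Eef1a1 are highest in mouse 5, at 864 and 2205 CPM.

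Factors whose mRNAs are known as TOP mRNAs were set apart as a list. Of these 9 genes (Eef1a1, Eef1b2, Eef1d, Eef1g, Eef2, Eif3e, Eif3f, Eif3h and Eif4b), 1 was called higher and 0 lower, with a median log2 fold change of 0.41, against 0.22 for all 65 factors and 1.23 for the ribosomal proteins. The values ran from -0.32 for Eif4b to 0.80 for Eef1d, and 7 of the 9 were above 0. Without pre-exposed mouse 5 the median was 0.21 for the 9 genes, 0.19 for the 65 factors and 0.78 for the ribosomal proteins. With each library's trend over gene length removed, described below, these medians were -0.01, 0.14 and 0.44. By the tract around the start, the median was 0.09 in the 14 factors with a tract and 0.14 in the others with a promoter given. Eef2, Eef1b2 and Eif4b of the TOP list had a promoter given but no tract, so this split does not divide TOP from other mRNAs. In ribosomal protein genes the medians were 1.38 with and 1.23 without a tract.

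Whether a factor followed the ribosomal protein mRNAs was tested directly, with the summed ribosomal protein counts as the library size. In this fit 13 of the 65 factors were lower in the pre-exposed mice and 0 higher. Over all genes 1.49% were higher and 27.7% lower. There were 26 factors with an unadjusted p under 0.05, against 48.3% of all genes. The median log2 fold change relative to the ribosomal proteins was -0.69 for the factors, -0.86 for all genes and 0.09 for the ribosomal proteins themselves. The cap binding, scaffold and helicase group gave 6 of the 13 genes, the eIF2α kinases 3 and eIF3 2. The eIF4E repressors and the start codon group gave 1 each. These 13 genes had a median length of 4230 bases, against 2367 bases for all 65 factors.

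The 8 with the smallest p were Eif2ak2, Eif4a2, Eif5, Eif4g2, Eif4g1, Eif4g3, Eif3a and Eif4enif1. Relative to the ribosomal proteins Eif2ak2 fell by 1.68 ± 0.40 on the log2 scale (SE, n = 5 per group, adjusted p = 0.0214, edgeR). The value was -1.27 for Eif4a2 (adjusted p = 0.0259), -1.18 for Eif5 (adjusted p = 0.0303), -1.35 for Eif4g2 (adjusted p = 0.0308) and -1.44 for Eif4g1 (adjusted p = 0.0316). These scaffold and helicase genes take up 3 of the first 5 places. For Eif4g3 it was -1.07 (adjusted p = 0.0318), for Eif3a -1.17 (adjusted p = 0.0320) and for Eif4enif1 -1.04 (adjusted p = 0.0330). At the other end Eif4a3l1 had the one positive value of the 65 (0.19, adjusted p = 0.740), against 11.4% of all genes above 0, and Eef1d was close to the ribosomal proteins (-0.13, adjusted p = 0.753). The count of 13 rests on single libraries. It was 0 without naïve mouse 1 or 2 or pre-exposed mouse 2, 3 or 4. It was 1 without naïve mouse 4 and 28 without pre-exposed mouse 1. The calls over all genes moved with it, from 3689 with all mice to 2 and 58 without naïve mouse 1 or 2. They were 3, 2 and 51 without pre-exposed mouse 2, 3 or 4, 1111 without naïve mouse 4 and 6350 without pre-exposed mouse 1.

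The log2 fold change of a factor went down with the length of its gene. Across the 65 factors Spearman's rho between log2 fold change and summed exon length was -0.62, a description over genes of the same 10 libraries. It was -0.51 over the 79 ribosomal proteins and -0.51 over all genes. The 33 factors of up to 2367 bases had a median log2 fold change of 0.44 and 31 of them were above 0, whereas the 32 longer factors had a median of -0.09 and 14 were above 0. The median ribosomal protein gene was 703 bases long and the median factor 2367 bases.

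With each library's trend over gene length removed, rho over the factors was 0.08. The medians were 0.14 for the factors, 0.44 for the ribosomal proteins and -0.01 for all genes. There were 0 factors and 0 ribosomal proteins called, and the calls over all genes fell as well, from 797 to 219. In that fit Eef1d had a log2 fold change of 0.94 and was no longer called (adjusted p = 0.0752). Among the named factors Eif5b went from 0.92 to 1.24 and Eif2b3 from 0.63 to 0.95, whereas Eif3k went from 0.68 to -0.04, Eef1akmt1 from 0.80 to 0.09, Eif4g1 from -0.75 to -0.44 and Eif2ak2 from -0.78 to -0.49. Relative to the ribosomal proteins the median of the factors was -0.19 in place of -0.69, and 0 of the 13 were still called. Over all genes the calls of that comparison fell from 3689 to 298. The trend with length is itself a difference between the groups, and how far it is technical was not tested.

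**Figure D4:**
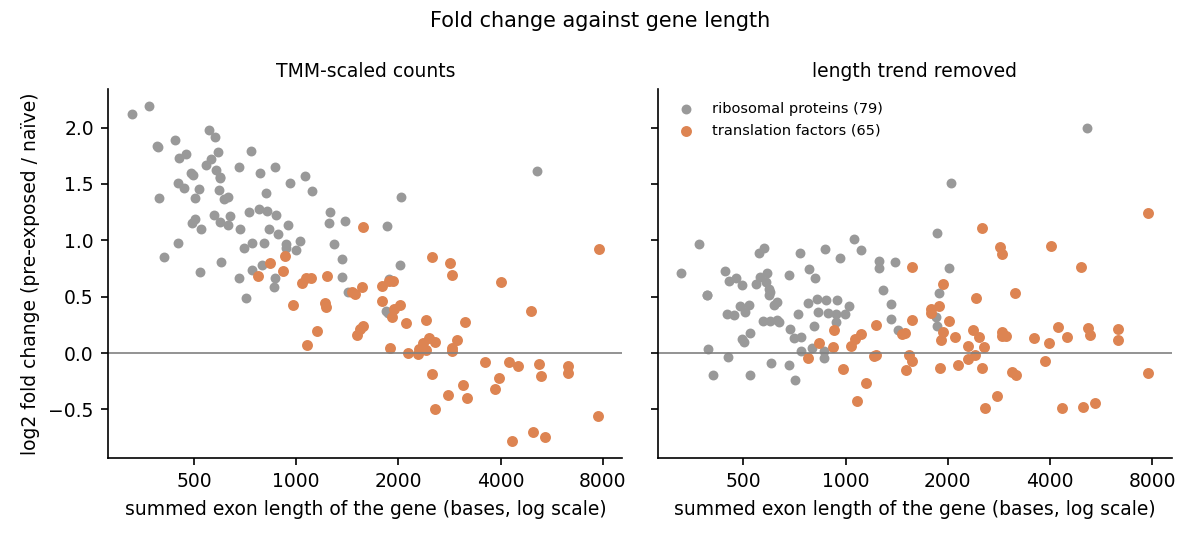
Log2 fold change of pre-exposed over naïve mice (y axis) against summed exon length (x axis, bases, log scale) for the 65 factors (orange) and the 79 ribosomal proteins (grey), with TMM-scaled counts (left) and after removal of each library's length trend (right). On the left the factors fall with length (rho -0.62), and on the right they do not (rho 0.08).

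The pre-exposed mice did not change alike. Against the 5 naïve mice, mice 2 to 4 had 16 factors called higher and 6 called lower (edgeR), where 15.1% of all genes were called higher and 14.5% lower. Mice 1 and 5 had 0 in either direction, with 0.206% of all genes higher and 0.00% lower, and 12 factors at an unadjusted p under 0.05, against 15.5% of all genes. DESeq2 was not run on these subsets. Both comparisons use the same naïve mice. Their counts of calls also depend on the number of mice and on their spread, so 0 calls do not mean no change. The median log2 fold change of the ribosomal proteins was 1.59 in mice 1 and 5, with 0 called. In mice 2 to 4 it was 0.90, with 62 called. For the 65 factors the medians were 0.11 in mice 1 and 5 and 0.20 in mice 2 to 4. The 16 factors that were higher in mice 2 to 4 had a median length of 1530 bases and ran from 0.58 for Eif3m to 1.43 for Eif4a3l1 on the log2 scale. They included 5 eIF3 subunits (Eif3c, Eif3g, Eif3i, Eif3k and Eif3m), 3 elongation factors (Eef1d, Eef1g and Eif5a), Eif4a1, Eif4a3, Eif6 and Eif1. The 6 that were lower had a median length of 4659 bases. They were Eif5a2 (-1.55), Eif2ak2 (-1.26), Eif3a (-0.997), Eif4g1 (-0.94), Eif4b (-0.61) and Eif4a2 (-0.60).

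Of the eIF3 subunits, 5 were called higher in mice 2 to 4 and Eif3a alone was called lower. The ratio of Eif3g to Eif3a counts was 0.256 to 0.401 in naïve mice and 0.353 in pre-exposed mouse 1. It was 1.38, 0.932 and 1.11 in mice 2 to 4 and 0.142 in mouse 5. This ratio sets a gene of 1068 bases over one of 5176 bases, and the part of gene length in it was not tested. It was not planned, and Eif3g was not named by the rule below. Ratios of Eif1 to Eif1b, Eif4g2 to Eif4g1 and Eef1a1 to Eef2 did not set mice 2 to 4 apart as a group. The direct comparison of mice 2 to 4 with mice 1 and 5 called 1 factor, Eif3a, which fell by 1.58 ± 0.32 on the log2 scale (SE, 3 against 2 mice, adjusted p = 0.0211, edgeR), where 2.73% of all genes were lower and 0.332% higher. There were 22 factors with an unadjusted p under 0.05, against 21.7% of all genes. Without mouse 5, which leaves mouse 1 alone on its side and assumes that it varies like the others, the log2 value was -0.98 (adjusted p = 0.0953). Without mouse 2 it was -1.67 (adjusted p = 0.0813) and without mouse 4 -1.57 (adjusted p = 0.0824), whereas without mouse 1, which leaves mouse 5 alone under the same assumption, it was -2.05 (adjusted p = 0.000176). With the length trend removed Eif3a was at -1.31 (adjusted p = 0.0710), and the 1 factor called was Eif3j2 (-1.85, adjusted p = 0.0496), a near copy of Eif3j1 named after its value was seen. The style of the label and the mitochondrial share cannot be told apart here.

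Library by library, the median factor lay 0.02, 0.39, 0.20, 0.25 and 0.02 above the naïve mean on the log2 scale in pre-exposed mice 1 to 5, and between -0.06 and 0.11 in the naïve mice. The median ribosomal protein lay 0.20, 1.21, 0.73, 0.99 and 2.25 above it. Of the 10 mice, mouse 5 had the highest ribosomal protein mRNA and a median factor at the naïve level. The shorter factors were at 0.06, 0.75, 0.44, 0.44 and 0.32, and the longer ones at 0.00, -0.24, -0.13, 0.00 and -0.03.

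**Figure D5:**
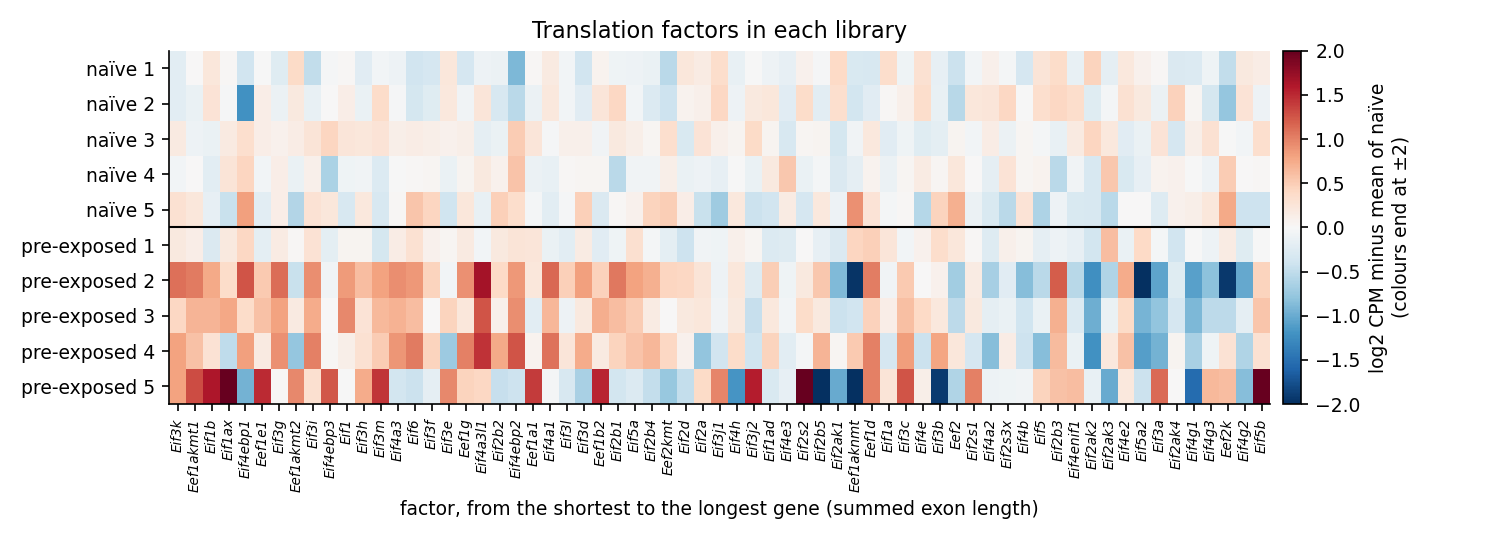
Log2 CPM of the 65 factors (x axis, from the shortest to the longest gene) in each of the 10 libraries (y axis), as the difference from the mean of the naïve mice (colour, red higher, blue lower, ending at 2 in each direction). Mice 2 to 4 are red at most genes of the short end and blue at several long genes, and mouse 1 resembles the naïve mice. Mouse 5 is also red at many short genes and has single strong genes in both directions among the longer ones.

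Among the genes of translation tested besides the factors and the ribosomal proteins, none was called between the groups by edgeR, against 6.30% of all genes. Of 24 tested genes of termination, rescue, poly(A) binding and mTOR signalling, 0 were called (median log2 fold change 0.12). An unadjusted p under 0.05 was found for 4 of them, against 24.3% of all genes. Rack1, a protein of the small subunit that docks kinases, was at 150, 149, 220, 196 and 245 CPM in the naïve mice and 229, 366, 270, 317 and 423 CPM in the pre-exposed mice (log2 fold change 0.74 ± 0.24, adjusted p = 0.0737, edgeR). Pelo, which rescues stalled ribosomes, went from 6.51 ± 1.39 to 11.6 ± 3.78 CPM (SD, n = 5 each, adjusted p = 0.127). Of the 10 mitochondrial translation factors 0 were called and 2 had an unadjusted p under 0.05, near the share over all genes (median 0.21). Mrrf was at 13.7 ± 3.47 and 21.6 ± 4.35 CPM (adjusted p = 0.163, edgeR) and Guf1 at 93.2 ± 32.2 and 61.8 ± 10.9 CPM (adjusted p = 0.189).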

How the data were processed

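RNA-sequencing was done on splenic EM γδ T cells of 5 naïve and 5 pre-exposed mice. The authors aligned read pairs to mm10 with Subread and deposited whole-number counts per Entrez gene from featureCounts, which are not normalized. Neither a version nor a strand setting is named in what was used here. Library kits differ between the methods (SMART ultra-low, from 1 ng of RNA) and the labels (TruSeq). The labels also call the pre-exposed mice drug-treated, whereas by the methods both groups were.

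Groups and replicate numbers came from the labels. Libraries of a group differed by more than sampling noise (the lowest chi-square per gene between a pair was 24.0). P-values measure the spread between these mice. Of 27179 genes, 13534 passed filterByExpr, and 12655 were tested after 767 without a symbol and 112 immunoglobulin genes were left out. The edgeR 4.0.16 quasi-likelihood test (R 4.3.3, TMM, robust, legacy set to FALSE, no covariates) was used, with Benjamini-Hochberg adjustment over all genes at 0.05. Standard errors were taken as log2 fold change over the root of the F statistic. CPM are counts per 1000000 of the scaled library size, and log2 CPM carry a prior count of 2. Relative tests used the summed counts of 79 ribosomal protein genes as library size. Another fit split the pre-exposed mice by the style of the label description. Library properties were compared by exact permutation. The length trend was a loess fit (span 0.3) per library. The main group fit, the relative fit and the fit that split the pre-exposed mice were checked on simulated counts, and the alternative fits were not. Depth limits low genes: 0 counts allow up to 3 at 95% confidence, counting error only.

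The members and lists were chosen with earlier results of these data known. Named factors were those called, up to 15 per direction, and in each role the 2 highest per kilobase and the 1 with the smallest p. The 3 highest and 3 lowest log2 fold changes, the TOP list and up to 8 called relative to the ribosomal proteins were also named, as were the 2 genes with the smallest p of each other translation list. Alternatives were other scalings, filters and tests (DESeq2 1.42.0, and voom with TREAT of limma 3.58.1 at 1.5-fold), covariates, subsets of mice and each library left out.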

Additional observations from a re-analysis of the deposited data

Results flagged for a closer look

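Among the 36 named factors, 72 groups of 5 mice were searched for a mouse far from the others, and 5 were found, all in pre-exposed mouse 5. By chance about 1 in 20 groups would be marked. In mouse 5 Eif5b was at 394 CPM, Eif1ax at 371 CPM, Eef1a1 at 2205 CPM, Eif4enif1 at 87.6 CPM and Eif3a at 864 CPM, each above the other 4 pre-exposed mice by over 0.71 of the whole range of the group. The same library had 24.7% of its counts in 10 genes and a TMM factor of 0.680, the lowest of the 10 libraries, and the part of these in the 5 values was not tested.

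Eif3a also differed between the pre-exposed mice by a test of the difference itself, with a log2 fold change of -1.58 in mice 2 to 4 against mice 1 and 5 (adjusted p = 0.0211, edgeR, 3 against 2 mice). Eif3a was at 191, 228 and 205 CPM in mice 2 to 4, at 384 CPM in mouse 1, within the naïve range, and at 864 CPM in mouse 5. Its call was lost without mouse 2, 4 or 5, one at a time, and was held without mouse 1 or 3.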

How the results depend on the processing

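The count of factors called between the groups was 1, and 0 under DESeq2 size factors, library totals without TMM, no filter on low counts, a minimum of 1 CPM in 5 libraries, the older dispersion method, removal of the length trend, voom and TREAT, the label style as covariate, and in mice 1 and 5 alone. It was 5 with DESeq2, 22 in mice 2 to 4 alone, and 0 to 8 with 1 library left out, where 8 came without pre-exposed mouse 1 and 7 without mouse 5. With symbol-less and immunoglobulin genes kept it stayed at 1. The replicate block gave 0, and the numbers did not pair the mice (correlations of -0.104, -0.129, 0.00, 0.05 and -0.261). Relative to the ribosomal proteins the count of 13 became 11 under the replicate block, 0 with the length trend removed, with the label style as covariate or in mice 1 and 5 alone, 33 in mice 2 to 4 alone, and 0 to 28 with 1 library left out. Other filters, the older dispersion method and a geometric mean gave 10 to 13. Over all genes this comparison called 3689 as first fitted, 3794 under the replicate block and 298 with the length trend removed. With the label style as covariate and in mice 1 and 5 alone it called 1 gene each, and in mice 2 to 4 alone 7300. Between mice 2 to 4 and 1 and 5 the count of 1 became 2 under DESeq2 size factors, no filter or 1 CPM, 0 without TMM, 9 with DESeq2, and 0 to 22 with 1 library left out (0 without mouse 2, 4 or 5, and 22 without mouse 1). It stayed 1 with the length trend removed, but the factor was Eif3j2 in place of Eif3a. Over all genes the calls between these mice were 388 as first fitted and 1332 with DESeq2. At an unadjusted p under 0.05 the group comparison gave 0 to 30 factors over all settings. For the named factors called in one of these 3 comparisons as first fitted, the log2 fold change of that comparison kept its sign in each setting. Factors called in a subset only could turn: Eif3a against naïve mice was -0.997 in mice 2 to 4 and 0.70 in mice 1 and 5.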
